A study of Mus musculus with 56 samples.

Results

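Arginine reaches a T cell through cationic amino acid carriers or is rebuilt inside it from citrulline, and nitric oxide synthase is among the enzymes that then consume it. The 6 genes described here supply or use that arginine and the ornithine made from it: the carriers Slc7a1 (CAT1) and Slc7a2 (CAT2), ornithine aminotransferase Oat, argininosuccinate synthase Ass1, argininosuccinate lyase Asl and the inducible nitric oxide synthase Nos2. They were chosen by what their proteins do, with earlier results of these data known. All 6 were found among the 47937 Ensembl identifiers listed in both tables.

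Ornithine is made from arginine, and ornithine decarboxylase (ODC, encoded by Odc1) turns it into putrescine, the first polyamine. Oat links ornithine to glutamate and proline. Ass1 and Asl together convert citrulline back to arginine, and Nos2 makes nitric oxide and citrulline from arginine. Nos2 is best known from macrophages. Spermidine, made from putrescine, donates part of itself to the hypusine residue of eIF5A, and deoxyhypusine hydroxylase (DOHH, encoded by Dohh) finishes that residue.

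CD4+ T cells of C57BL/6 mice were isolated from spleen and lymph nodes by negative selection, a step meant to remove other cell types, and were activated with antibodies to CD3 and CD28 and IL-2, and polarized for 4 days into TH1, TH2, TH17 and Treg cells. The labels call the isolated cells CD4+ and the methods call them naive. The mice of the KO groups carried Cre under the CD4 promoter with floxed Odc (Odc-/-) or floxed Dohh (Dohh-/-) alleles, which deletes in every cell that has expressed Cd4. The control mice (WT) lacked Cre according to the study. One table of raw gene counts held 16 WT libraries and 15 labelled Odc-/-, 4 per group except 3 in TH2, where replicate 1 of the labelled libraries was not analysed here. The other held 12 WT libraries and 12 labelled Dohh-/-, 3 per group. Nothing in the labels says that the replicates came from separate mice, so p-values measure the spread between these libraries. In bulk RNA, fewer cells of a type and less RNA per cell cannot be told apart.

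Libraries of the Odc table held 5905374 to 9145214 counts and Dohh-table libraries held 6572148 to 12576933, and a count of 0 allows up to 3 counts, or 0.328 to 0.508 CPM and 0.239 to 0.456 CPM. Those limits cover counting error only. Odc1 lay between 423 and 679 CPM in libraries labelled Odc-/- and between 356 and 859 CPM in their WT controls, and Dohh between 45.2 and 148 CPM in libraries labelled Dohh-/- against 31.5 to 45.8 CPM in WT. Dohh was also higher in libraries labelled Odc-/-, at 51.5 to 97.8 CPM against 24.5 to 48.6 CPM in WT. It shares 47.5% of its exonic bases with Gm48551 on the same strand. Counts over a whole gene do not show whether the floxed exons are gone, so the genotypes are given here as labelled. The T cell gene Cd3e was detected throughout, at 97.9 to 326 CPM over both tables. Cd4, which defines the isolated cells, was at 272 to 693 CPM in libraries labelled Odc-/- and 441 to 1031 CPM in their WT controls, but at only 22.0 to 79.7 CPM in all 12 libraries labelled Dohh-/- against 660.2 to 968 CPM in WT. Among WT libraries the TH1, TH2 and TH17 marker sums were highest in the subset of that name in both tables, and Foxp3, the defining factor of Treg cells, lay between 393 and 638 CPM in WT Treg libraries and below that in all other WT libraries. The Treg list as a whole (Foxp3, Ikzf2 and Il2ra) was not highest in WT Treg libraries. In the Dohh table it summed to 2383 to 2744 CPM in WT TH1 against 1629 to 2040 CPM in WT Treg. In the Odc table these sums were 3345 to 4572 and 2920 to 3812 CPM, which overlap. In Treg libraries labelled Dohh-/- Foxp3 was at 61.6 to 178 CPM. The 10 myeloid marker genes summed to 20.4 to 37.0 CPM in Dohh-table WT libraries, but to 117, 4712 and 1859 CPM in TH17 and 102, 3157 and 2036 CPM in Treg libraries labelled Dohh-/-. Results of TH17 and Treg labelled Dohh-/- were therefore also computed without the 4 libraries over 1000 CPM (replicates 2 and 3), which leaves 1 labelled library in each. Xist exceeded 10 CPM in 12 of 16 WT and 0 of 15 labelled Odc-/- libraries, and WT replicate 1 of that table held Xist and the Y-linked Ddx3y together, whereas the Dohh table had it in 4 of 12 WT and 8 of 12 labelled libraries. The Odc fit was for that reason repeated with a term for Xist. As no library labelled Odc-/- passed that limit, the term was estimated from WT libraries alone. A call kept or lost with it therefore does not separate genotype from Xist status.

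In the GENCODE annotation of GRCm38 the 6 genes lie on 5 chromosomes. Slc7a1 (ENSMUSG00000041313.14, chr5:148327410-148399904, minus strand) and Asl (ENSMUSG00000025533.15, chr5:130011258-130029247, minus) share chromosome 5. Oat (ENSMUSG00000030934.8, chr7:132557478-132576398, minus), Ass1 (ENSMUSG00000076441.9, chr2:31470207-31520672, plus) and Nos2 (ENSMUSG00000020826.7, chr11:78920787-78960254, plus) overlap no exon of another gene. Slc7a2 (ENSMUSG00000031596.15, chr8:40862396-40922308, plus) shares 6.95% of its exonic bases with Gm26584. The strand setting of the counting is not given in the sources used here, so reads of this overlap may belong to either gene.

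Upstream sequence from RefSeq (GRCm38.p6) was found for Slc7a1, Oat and Ass1, and none was found for Slc7a2, Asl and Nos2 in the sources used here. It is shown for Slc7a1 and Ass1, which had levels high enough to compare in every group and at least 1 called difference. Capitals mark a match to CACGTG (the E-box core), TGATGNAA (the composite C/EBP and ATF4 element), TTCNNNGAA (the STAT element), TATAAA (the TATA box), the STAT6-type element or an NF-kappaB-type element, on either strand. The 250 bases before the main Slc7a1 start (chr5:148399905-148400154, minus strand) hold none of these. The 187 bases that end just before the first annotated Ass1 base (chr2:31470020-31470206, plus strand) hold none either. A CACGTG lies 36 bases before the RefSeq start of Ass1, and the third line gives the 30 bases around it (chr2:31470222-31470251).
Slc7a1 upstream: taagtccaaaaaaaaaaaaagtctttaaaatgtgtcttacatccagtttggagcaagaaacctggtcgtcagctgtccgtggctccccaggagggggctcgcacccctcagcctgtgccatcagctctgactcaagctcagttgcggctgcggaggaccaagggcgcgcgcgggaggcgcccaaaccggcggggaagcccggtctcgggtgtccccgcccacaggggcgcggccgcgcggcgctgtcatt
Ass1 upstream: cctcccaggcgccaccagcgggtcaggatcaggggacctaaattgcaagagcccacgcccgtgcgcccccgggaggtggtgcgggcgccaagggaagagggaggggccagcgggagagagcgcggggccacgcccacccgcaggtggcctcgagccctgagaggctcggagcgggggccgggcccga
Ass1 around CACGTG: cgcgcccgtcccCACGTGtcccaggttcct
Of 32817 RefSeq promoter windows of 250 bases, 6.02% held CACGTG, which basic helix-loop-helix factors bind. A second RefSeq start of Slc7a1 had TATAAA 28 bases and TTCNNNGAA 146 bases before it, motifs found in 12.4% and 7.01% of windows. The Oat window held none of the 6 motifs. A match of letters is a description and not a site shown to be used.

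Levels are CPM, the counts of a gene relative to the TMM-scaled library size, and differences are log2 fold changes from edgeR's quasi-likelihood fit over all genes with Benjamini-Hochberg adjusted p-values. A gene was called at an adjusted p below 0.05 and a change above 2-fold. All 6 genes passed the filter on low counts in the Odc table, and all but Oat did so, 5 genes, for Dohh. Against WT, libraries labelled Odc-/- had 1 of 6 called in TH1, 3 in TH2, 1 in TH17 and 2 in Treg cells, where 21.4%, 25.1%, 15.6% and 24% of all 13839 genes tested were called. Libraries labelled Dohh-/- had 1 of 5 called in TH1, 1 in TH2, 1 in TH17 and 2 in Treg cells, against 29.1%, 25.9%, 31.4% and 32.7% of all 13897 genes. The share of these genes lay above that of all genes in TH2, TH17 and Treg with Odc and in Treg with Dohh and below it in the other 4, and these shares were not tested. The median log2 fold change of the genes tested was -0.11, -0.10, -0.19 and -0.45 in the Odc comparisons and -0.50, 0.18, 0.019 and 0.21 in the Dohh comparisons, in the same order, beside medians of all genes from -0.0019 to 0.073. The groups did not overlap for 3, 4, 1 and 4 of 6 genes with Odc, where 43.3%, 61.1%, 41.1% and 45.8% of all genes did not, and for 2, 2, 3 and 3 of 5 with Dohh, where 50.7%, 62.4%, 62% and 66.6% did not.

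The calls were spread unevenly over the genes. Nos2 was called in 5 of 8 comparisons, Slc7a2 in 4, Ass1 in 2, Slc7a1 in 1, and Asl and Oat in 0. Called higher and lower were 0 and 1, 1 and 2, 0 and 1, and 1 and 1 genes in TH1, TH2, TH17 and Treg labelled Odc-/-, against 10.2% and 11.3%, 11.5% and 13.6%, 8.35% and 7.21%, and 13.9% and 10.1% of all genes. With Dohh they were 0 and 1, 1 and 0, 1 and 0, and 1 and 1, against 14.8% and 14.2%, 14.3% and 11.6%, 17.3% and 14.1%, and 17.5% and 15.2%. By an adjusted p below 0.05 alone, 3, 5, 2 and 5 of 6 genes passed with Odc (56.8%, 59.2%, 47.8% and 59.8% of all genes) and 1, 2, 2 and 2 of 5 with Dohh (50%, 45.3%, 52% and 53.4%), Asl being among them 4 times and Oat 2 times. Levels in WT cells differed among the 4 subsets for 5 of 6 genes (Odc table) and 3 of 5 (Dohh table) (71.1% and 40.1% of all genes), and the effect of genotype differed among subsets for 4 of 6 and 3 of 5 (34.8% and 17.9%). Between WT subsets, taken as TH1 with TH2, TH1 with TH17, TH1 with Treg, TH2 with TH17, TH2 with Treg and TH17 with Treg, 8.87%, 14.9%, 19.4%, 17.5%, 21.1% and 14% of all genes were called in the Odc libraries and 6.21%, 12.4%, 15.5%, 13.7%, 17.1% and 7.07% in the Dohh libraries, and the 6 and 5 genes tested had 10 and 5 calls over these pairs.

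**Figure D1:**
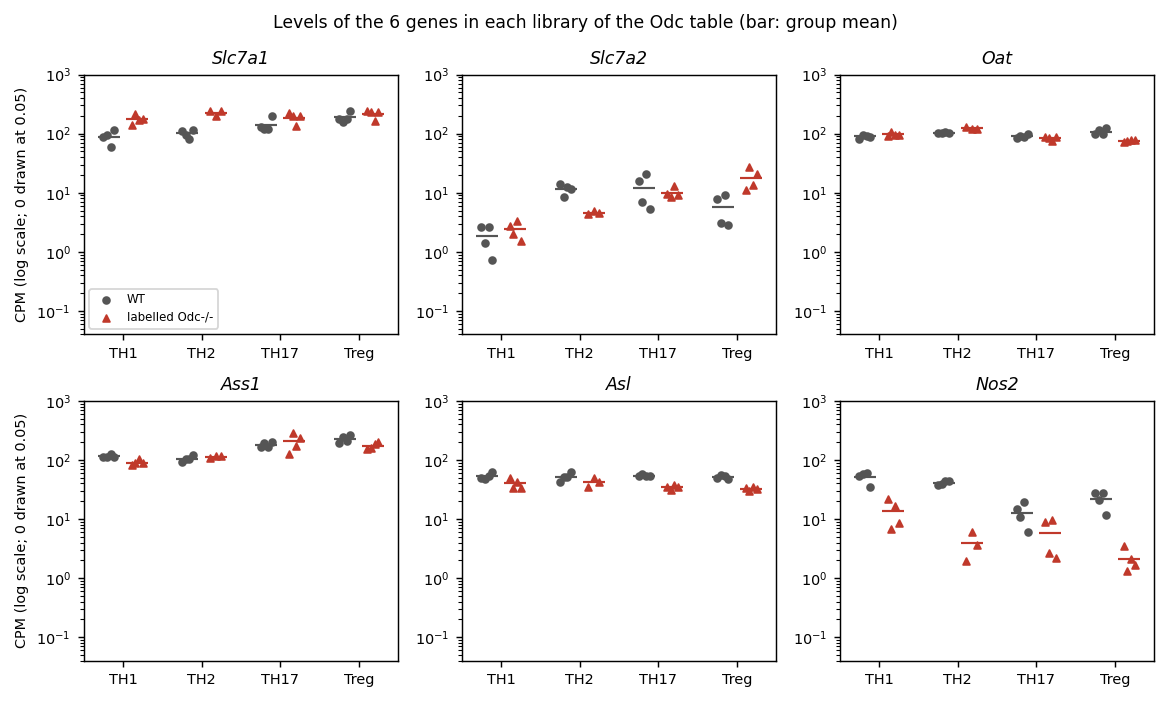
CPM of the 6 genes (log axis, 0 drawn at 0.05) in each library of the Odc table, by subset, with WT libraries as grey circles, libraries labelled Odc-/- as red triangles and bars at group means; 4 libraries per group, 3 for labelled TH2. Nos2 lies lower on average in the labelled libraries of every subset, while Oat, Ass1 and Asl stay within 2-fold of WT on average.

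**Figure D2:**
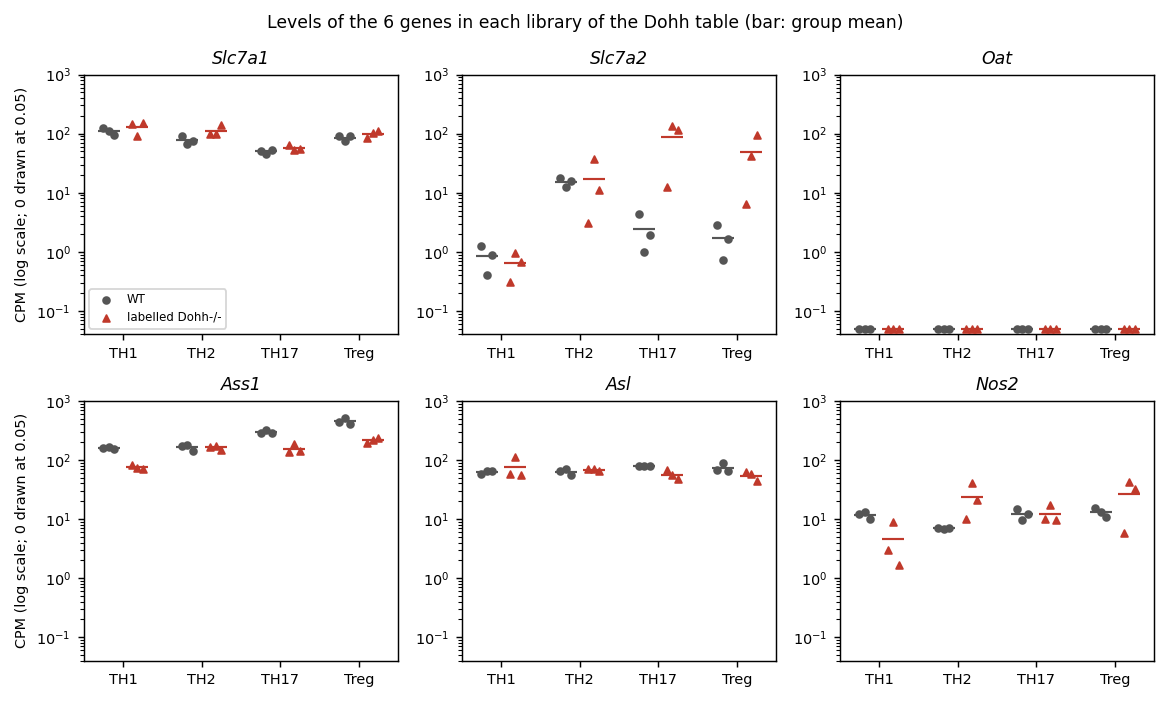
CPM of the 6 genes (log axis, 0 drawn at 0.05) in each library of the Dohh table, by subset, with 3 WT libraries (grey circles), 3 labelled Dohh-/- (red triangles) and a bar at each group mean. Slc7a2 spreads over more than 10-fold among labelled TH2, TH17 and Treg libraries, Ass1 is lower in labelled TH1, TH17 and Treg libraries, and Oat is at 0 in all 24.

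Slc7a1, the main carrier of arginine into proliferating cells, was the more abundant of the carriers in all WT groups, at 7.70 CPM per kilobase of exon in TH1 of the Odc table against 0.202 for Slc7a2. Its WT level differed among subsets in both tables (adjusted p = 4.52e-05 and 6.07e-04), but in another order. In the Odc table it was 188 ± 36.0 CPM in Treg, 142 ± 38.7 in TH17, 101 ± 15.4 in TH2 and 88.8 ± 22.1 in TH1 cells (mean ± SD, n = 4). Treg exceeded TH1 there (log2 difference -1.08, standard error 0.19, adjusted p = 3.62e-05 for TH1 minus Treg), whereas the neighbours Treg and TH17 (adjusted p = 0.105) and TH2 and TH1 (adjusted p = 0.557) did not pass in the fit without a block. WT libraries of that table pair by replicate number, and with the number as a block within genotype TH17 lay below Treg (log2 difference -0.42, adjusted p = 0.00541). Without replicate 3 the difference between TH1 and Treg was just under 2-fold (-0.96, adjusted p = 3.41e-04). In the Dohh table TH17 was lowest at 50.3 ± 3.77 CPM and TH1 highest at 109.8 ± 15.6 CPM (n = 3), a called difference (log2 difference 1.13, standard error 0.19, adjusted p = 1.71e-04).

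Slc7a1 was higher in TH1 and TH2 libraries labelled Odc-/-. TH2 WT libraries had 109, 95.6, 82.0 and 117 CPM and the labelled ones 242, 200.1 and 239 CPM. The groups did not overlap, and the gene rose (log2 fold change 1.17, standard error 0.20, adjusted p = 3.18e-05). In TH1, 86.9, 95.3, 60.0 and 113 CPM in WT stood against 139, 214, 171 and 180.1 CPM, again without overlap, with a change just inside the 2-fold limit (log2 fold change 0.99, standard error 0.19, adjusted p = 1.30e-04). The TH17 and Treg groups overlapped, with log2 fold changes of 0.39 and 0.21 (adjusted p = 0.0892 and 0.335). WT TH17 libraries had 131, 120, 120 and 200.0 CPM, replicate 4 standing apart, against 222, 197, 133 and 195 CPM in labelled ones. The 4 changes differed from each other (genotype by subset, adjusted p = 0.0169), a result lost without replicate 2 (adjusted p = 0.138) or 3 (0.0804). In TH2 libraries labelled Dohh-/- the CPM values 99.1, 97.3 and 142 lay above the WT values 92.6, 66.6 and 74.1 (log2 fold change 0.54, standard error 0.19, adjusted p = 0.0267). This change was not shown to differ from that with Odc (log2 difference of effects 0.65, adjusted p = 0.103). The other Dohh comparisons gave log2 fold changes from 0.20 to 0.25 with overlapping groups. Without the 4 libraries with high myeloid markers the Treg value was -0.05 (adjusted p = 0.915).

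Other cell markers moved in the same Odc comparisons. The 5 B cell markers, all detected, summed to 256 to 1193 CPM in TH1 and 530 to 841 CPM in TH2 libraries labelled Odc-/-, against 33.5 to 90.6 and 86.9 to 227 CPM in WT. The 7 T cell identity genes summed to 2521 to 3077 and 1668 to 2041 CPM against 3529 to 4235 and 2893 to 3481 CPM. In TH17 and Treg the B cell sums were 113 to 166 and 492 to 629 CPM against 87.4 to 103 and 221 to 250.3 CPM, while those of T cell identity overlapped. The 6 CD8 T and NK cell markers were highest in Treg labelled Odc-/-, at 412 to 641 CPM against 42.1 to 72.9 CPM. In TH1, TH2 and TH17 that list summed to 146 to 216, 23.7 to 31.3 and 258 to 355 CPM against 86.5 to 145, 18.9 to 30.4 and 144 to 181 CPM, overlapping in TH2. The 8 basophil and mast cell markers, all detected in the labelled groups, were higher without overlap in all 4 subsets, at 25.0 to 209, 41.8 to 85.1, 58.8 to 335 and 74.3 to 211 CPM in TH1, TH2, TH17 and Treg against 13.9 to 18.7, 5.06 to 10.0, 31.0 to 48.2 and 27.1 to 44.8 CPM in WT. Myeloid sums overlapped in TH1 and TH17 (9.23 to 21.1 and 43.0 to 316 against 7.98 to 19.6 and 21.9 to 48.3 CPM) and were lower in TH2 (8.39 to 15.3 against 16.2 to 20.3 CPM). The negative selection of CD4+ T cells is meant to remove B, CD8 T, NK, basophil and myeloid cells, and their part in the Odc results was not tested.

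Slc7a2, the inducible carrier that macrophages use beside Nos2, was low in WT TH1 cells and highest in WT TH2 cells of the Dohh table. There it had 17.7, 12.6 and 15.7 CPM in TH2, 4.44, 0.975 and 1.96 in TH17, 2.86, 0.729 and 1.62 in Treg and 1.24, 0.398 and 0.896 in TH1 libraries. TH2 exceeded TH1 (log2 difference -4.14, standard error 1.13, adjusted p = 0.0238 for TH1 minus TH2) and Treg (adjusted p = 0.0298), calls lost without replicate 2 (adjusted p = 0.206 and 0.163) or 3 (0.194 and 0.227). In the Odc table WT TH2 and TH17 stood level at 11.7 ± 2.41 and 12.2 ± 7.38 CPM (mean ± SD, n = 4), and each exceeded TH1. TH1 had 1.84 ± 0.922 CPM and Treg 5.70 ± 3.24 CPM. Among WT TH17 and Treg libraries of that table, replicates 1 and 3 were the high ones for Slc7a2.

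Slc7a2 was lower in TH2 and higher in Treg libraries labelled Odc-/-. TH2 WT libraries had 14.3, 8.53, 12.4 and 11.6 CPM against 4.37, 4.84 and 4.52 in those labelled Odc-/-. The gene fell without overlap (log2 fold change -1.36, standard error 0.44, adjusted p = 0.00955), though with the Xist term the call was lost (log2 fold change -0.71, adjusted p = 0.191). In Treg it rose from 7.72, 3.10, 9.21 and 2.79 to 11.0, 27.0, 13.7 and 20.7 CPM (log2 fold change 1.66, standard error 0.38, adjusted p = 5.41e-04), also without overlap and with the Xist term (log2 fold change 2.34, adjusted p = 8.73e-05). TH1 and TH17 overlapped. The effect differed among the 4 subsets (adjusted p = 0.00145), although without replicate 2 the adjusted p was 0.0523. Summed myeloid markers were 88.1, 134, 381 and 107 CPM in the Treg libraries labelled Odc-/- and 39.0, 23.6, 44.9 and 22.0 CPM in their WT controls, and their part in the result was not tested.

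In the Dohh table Slc7a2 was called higher in TH17 and Treg. TH17 libraries labelled Dohh-/- had 12.3, 133 and 115 CPM and Treg ones 6.40, 41.4 and 96.3 CPM, all above WT. The log2 fold changes were 5.10 (adjusted p = 6.21e-04) and 4.72 (adjusted p = 0.0011). In both subsets replicate 1 was several-fold below the others, and replicates 2 and 3 are the libraries with over 1000 CPM of myeloid markers. Without those 4 libraries the values were 2.29 (adjusted p = 0.0527) and 1.78 (adjusted p = 0.147), neither called, in a fit where the lone labelled library of each subset is assumed to vary like the other groups. TH2 libraries labelled Dohh-/- spread widely, at 3.04, 37.8 and 11.1 CPM, replicate 2 lying above all WT libraries and replicates 1 and 3 below them. The effect differed among the 4 subsets (adjusted p = 0.0183), a call lost without replicate 2 (0.146), replicate 3 (0.291) or the 4 libraries with high myeloid markers (0.343).

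Markers of other cells were measured beside the Slc7a2 values above and the Nos2 values below. In TH2 libraries labelled Dohh-/- the 10 myeloid markers summed to 26.7, 246 and 79.1 CPM and Lyz2, the macrophage and neutrophil lysozyme, to 1.89, 54.6 and 8.37 CPM, with 9 of 10 markers detected and Itgam at 0, as in every library of that table. Their WT controls had 21.7 to 30.6 CPM of the list, with Csf3r, Elane and Itgam at 0. Itgam was detected in every group of the Odc table, and 68.7% of its exonic bases are shared with Gm49368 on the same strand. Its 0 in the Dohh table is therefore not read as a level. The 8 basophil and mast cell markers summed to 70.7, 467 and 489 CPM in the labelled TH2 libraries and 3.78, 5.07 and 4.59 CPM in WT, and all 8 were detected. In the labelled TH17 and Treg libraries that list summed to 339, 855 and 1234 and 180.0, 330.4 and 369 CPM, and Lyz2 reached 66.9, 4207 and 1203 and 56.2, 2853 and 1639 CPM. Lyz2 was highest in the 4 libraries that also held the most Slc7a2. Negative selection is meant to remove both, and the part of either cell type in the Slc7a2 and Nos2 values was not tested.

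**Figure D3:**
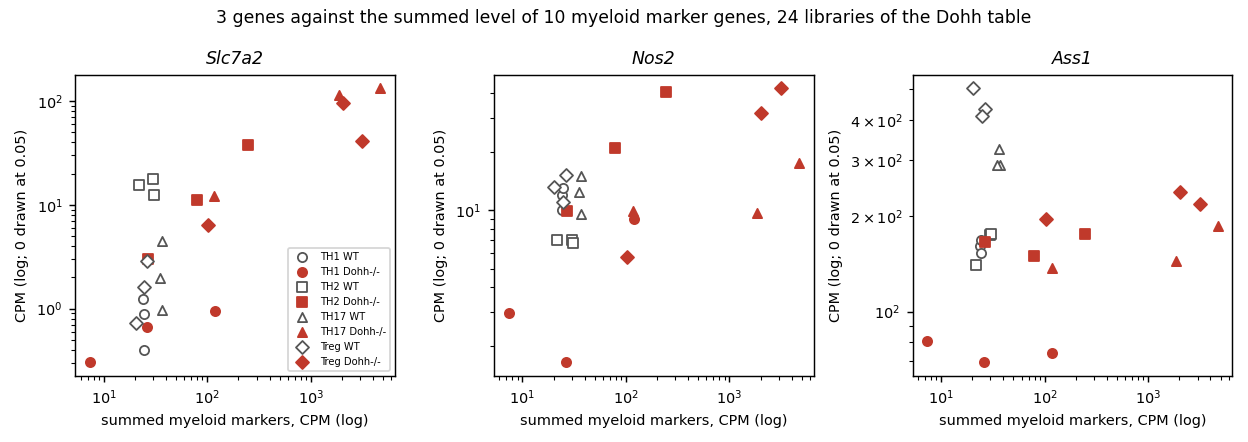
CPM of Slc7a2, Nos2 and Ass1 (log y axes, 0 drawn at 0.05) against the summed CPM of 10 myeloid markers (log x axis) in the 24 libraries of the Dohh table; shape gives the subset, open symbols are WT and filled ones labelled Dohh-/-. The 4 filled symbols at the right, over 1000 CPM on the x axis, have the 4 highest Slc7a2 values, while the filled TH2 squares have 26.7 to 246 CPM of markers.

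Oat, which interconverts ornithine and glutamate semialdehyde, could be read in the Odc table only. It had 0 counts in all 24 libraries of the Dohh table and 23107 in the Odc libraries, and 275 genes had at least 500 counts there but at most 5 in the Dohh libraries. The 0 is therefore not read as a level. In the Odc table WT libraries of the 4 subsets lay between 82.5 and 123 CPM. Subsets still differed (adjusted p = 0.00291), with Treg at 109 ± 11.8 and TH2 at 104 ± 2.57 CPM above TH17 at 90.3 ± 6.20 and TH1 at 89.5 ± 5.27 CPM (mean ± SD, n = 4). The upper and the lower neighbours did not differ within each pair (adjusted p = 0.502 and 0.916).

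Oat moved by less than 2-fold, but in different directions by subset. Treg libraries had 97.9, 113, 99.9 and 123 CPM in WT and 73.1, 74.0, 79.2 and 76.8 CPM when labelled Odc-/-, with no overlap (log2 fold change -0.52, standard error 0.08, adjusted p = 2.87e-06). TH2 had 101, 104, 107 and 102 CPM and 130.1, 119 and 118 CPM, the labelled libraries all higher (log2 fold change 0.24, standard error 0.08, adjusted p = 0.0146). TH1 and TH17 overlapped (0.12 and -0.09). The difference in effect among subsets passed its test (adjusted p = 3.28e-05).

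Ass1, the rate-limiting enzyme of arginine synthesis from citrulline, had the highest mean per length of the genes read in each table in all WT groups but TH2 of the Odc table, at 43.6 to 94.4 CPM per kilobase (Odc) and 66.6 to 186 (Dohh). Oat, which was not read in the Dohh table, had 44.0 CPM per kilobase in that TH2 group. The WT order of subsets for Ass1 agreed between tables: Treg, then TH17, then TH1 and TH2. In the Dohh table the means were 449 ± 48.9, 302 ± 20.6, 163 ± 20.2 and 161 ± 7.71 CPM in Treg, TH17, TH2 and TH1 (mean ± SD, n = 3). In the Odc table they were 228 ± 30.6, 181 ± 17.7, 105 ± 11.0 and 115 ± 6.76 CPM (n = 4). Subsets differed in both (adjusted p = 4.71e-07 and 1.95e-08), and Treg exceeded TH2 by log2 differences of 1.11 and 1.46. TH1 and TH2 did not differ beyond their spread in either (adjusted p = 0.606 and 0.957), nor did TH17 and Treg in the Odc table without a block (0.0984). With the replicate block within genotype TH17 lay below Treg there (log2 difference -0.33, adjusted p = 0.0335). B cell marker sums also varied among WT subsets. In TH1, TH2, TH17 and Treg they were 49.2 to 64.7, 105 to 186, 239 to 257 and 280.4 to 294 CPM (Dohh table). In the Odc table they were 33.5 to 90.6, 86.9 to 227, 87.4 to 103 and 221 to 250.3 CPM. Their part in the WT differences of Ass1 and Slc7a1 was not tested.

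Ass1 was lower in TH1, TH17 and Treg libraries labelled Dohh-/- and level in TH2. In TH1, WT libraries had 161, 168 and 153 CPM and labelled ones 80.8, 74.0 and 69.4 CPM (log2 fold change -1.10, standard error 0.14, adjusted p = 4.20e-06). Treg went from 433, 504 and 411 to 195, 219 and 238 CPM (log2 fold change -1.05, standard error 0.14, adjusted p = 4.31e-06). These 2 groups fell without overlap, and TH17, at 289, 325 and 290.1 against 137, 186 and 144 CPM, had a change just short of 2-fold (log2 fold change -0.95, standard error 0.14, adjusted p = 1.77e-05). In TH2 the values were 174, 176 and 139.9 and 166, 175 and 149 CPM (log2 fold change 0.00, standard error 0.14, adjusted p = 0.997). Without the 4 libraries with high myeloid markers the TH17 and Treg values were -1.13 (adjusted p = 6.46e-04) and -1.24 (adjusted p = 2.17e-04), both called. Leaving out labelled Treg replicate 1 gave -0.97, just under 2-fold (adjusted p = 7.61e-05). The effect differed among subsets (adjusted p = 0.00101), a call lost without replicate 1 or 2 (0.0717 and 0.0587) and kept without the 4 libraries (0.00128). The 6 CD8 T and NK cell markers summed to 402 to 873, 74.5 to 137, 605 to 753 and 746 to 878 CPM in TH1, TH2, TH17 and Treg libraries labelled Dohh-/-, against 57.5 to 74.9, 27.3 to 30.3, 101 to 128 and 43.9 to 67.1 CPM in WT. All 6 were detected in the labelled groups, and Klrb1c and Ncr1 were at 0 in WT TH17. T cell identity sums were lower in all 4 labelled groups, at 1595 to 3307 against 3446 to 4166 CPM. B cell sums were lower in TH1 (11.7 to 36.0 against 49.2 to 64.7 CPM), overlapped in TH2 and were higher in TH17 and Treg (359 to 439.7 and 561 to 847 against 239 to 257 and 280.4 to 294 CPM). In TH1 the 8 basophil and mast cell markers summed to 67.5 to 401 CPM in the labelled libraries, all 8 detected, against 5.30 to 6.72 CPM in WT with Prss34 at 0, and the myeloid ones to 7.35 to 119 against 23.9 to 24.5 CPM. Sums of the 5 erythroid genes were higher without overlap in all 4 labelled groups, at 2.45 to 5.99, 2.20 to 16.1, 8.52 to 53.9 and 2.72 to 11.3 CPM in TH1, TH2, TH17 and Treg against 0 to 0.336, 0 to 0.317, 0.115 to 0.585 and 0.752 to 1.36 CPM in WT, and were at most 3.07 CPM in the Odc table. Cd4 was low in the labelled libraries of all 4 subsets, as given above. Negative selection is meant to remove B, CD8 T, NK, basophil, myeloid and erythroid cells, and their part in the Dohh results, those of Nos2 in TH1 included, was not tested.

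In the Odc table Ass1 was not called, although the TH1 groups did not overlap. Treg libraries labelled Odc-/- had 152, 158, 189 and 199 CPM against 197, 247, 207 and 261 in WT (log2 fold change -0.38, standard error 0.15, adjusted p = 0.0336), and TH1 ones 81.1, 87.2, 104 and 89.6 against 113, 111, 125 and 112 (log2 fold change -0.35, standard error 0.16, adjusted p = 0.0577). TH2 and TH17 had log2 fold changes of 0.10 and 0.18, the labelled TH17 libraries ranging from 126 to 286 CPM.

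Asl, which completes arginine synthesis by releasing it from argininosuccinate, did not differ among WT subsets in either table (adjusted p = 0.954 and 0.419), with group means of 51.7 to 54.2 CPM (Odc table) and 62.1 to 79.3 CPM (Dohh table). It was lower in all 4 Odc comparisons by less than 2-fold. In Treg, WT libraries had 49.2, 56.0, 54.2 and 47.4 CPM and those labelled Odc-/- 33.0, 30.2, 34.6 and 32.8 CPM (log2 fold change -0.66, standard error 0.13, adjusted p = 6.71e-05). In TH17 they had 52.8, 57.3, 53.8 and 52.9 and 35.0, 31.0, 38.1 and 35.5 CPM (log2 fold change -0.64, standard error 0.13, adjusted p = 2.35e-04). Both subsets were without overlap, while TH1 (-0.40, adjusted p = 0.00832) and TH2 (-0.31, adjusted p = 0.0484) overlapped. Without labelled TH2 replicate 2 the TH2 value was -0.19. The effect was not shown to differ among subsets (adjusted p = 0.274). In the Dohh table no comparison passed, though labelled TH17 libraries, at 67.5, 54.7 and 47.5 CPM, all lay below WT at 79.4, 79.7 and 78.7 (log2 fold change -0.49, standard error 0.21, adjusted p = 0.0599; -0.23 and adjusted p = 0.609 without the 4 libraries). Labelled Treg libraries lay below WT as well, at 61.4, 57.9 and 43.3 against 67.1, 87.1 and 65.5 CPM (log2 fold change -0.43, standard error 0.21, adjusted p = 0.09). TH1 and TH2 overlapped, with log2 fold changes of 0.29 and 0.12. Without labelled TH1 replicate 2, which had 114 CPM, the TH1 value was -0.12.

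Nos2, the inducible nitric oxide synthase, was the only one of the 6 genes called in all 4 Odc comparisons. WT levels there were 52.0 ± 11.7 CPM in TH1, 41.2 ± 3.56 in TH2, 21.7 ± 7.43 in Treg and 12.7 ± 5.82 in TH17 cells (mean ± SD, n = 4), and subsets differed (adjusted p = 1.87e-04). TH1 exceeded Treg and TH17 (1.26 and 2.03, adjusted p = 0.00679 and 1.56e-04), while TH1 and TH2 (adjusted p = 0.575) and TH17 and Treg (0.132) did not pass in the fit without a block. With the replicate block within genotype TH17 lay below Treg (log2 difference -0.78, adjusted p = 0.00218). WT levels of the Dohh table lay between 6.76 and 15.2 CPM in all 12 libraries, and no subset differed (adjusted p = 0.536).

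Nos2 fell in all 4 subsets labelled Odc-/-. TH2 libraries went from 37.8, 38.5, 44.4 and 44.1 to 1.98, 5.98 and 3.61 CPM (log2 fold change -3.41, standard error 0.50, adjusted p = 4.62e-06). Treg libraries went from 27.2, 20.7, 27.3 and 11.5 to 3.43, 1.32, 2.07 and 1.69 CPM (log2 fold change -3.35, standard error 0.48, adjusted p = 2.09e-06), and TH1 from 54.3, 57.8, 61.0 and 35.0 to 22.2, 6.74, 16.3 and 8.67 CPM (log2 fold change -1.96, standard error 0.39, adjusted p = 1.82e-04). These 3 subsets did not overlap. They stayed called with the Xist term (log2 fold changes -3.36, -3.30 and -1.91), which was estimated from WT libraries alone and cannot separate genotype from Xist status. TH17, at 14.6, 10.8, 19.6 and 5.92 and 8.89, 2.63, 9.64 and 2.21 CPM, overlapped (log2 fold change -1.15, standard error 0.43, adjusted p = 0.031). That call was lost with the Xist term (adjusted p = 0.0791), in a fit of only those 2 groups (0.0897), without labelled replicate 2 (0.11) or 4 (0.114), or without WT replicate 1 (0.0687) or 3 (0.132). The size of the fall differed among subsets (adjusted p = 0.0147), a call lost without replicate 1 (0.0733), 2 (0.0817) or 3 (0.0667).

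In libraries labelled Dohh-/- Nos2 took different directions. TH2 rose from 6.99, 6.76 and 7.06 to 9.85, 40.8 and 20.9 CPM (log2 fold change 1.78, standard error 0.58, adjusted p = 0.0166), and without labelled replicate 2 the value was 1.14 (adjusted p = 0.13) and without WT replicate 2 it was 1.72 (adjusted p = 0.0546). TH1 had 12.0, 12.9 and 9.97 CPM in WT and 2.96, 8.99 and 1.65 CPM when labelled, all lower but not called (log2 fold change -1.41, standard error 0.60, adjusted p = 0.0575). It was called without labelled replicate 2 (-2.32, adjusted p = 0.0106). The 4 libraries with high myeloid markers are all TH17 or Treg ones. Leaving them out hardly moved the TH1 value (-1.42), although it was then called. Treg had 5.74, 42.5 and 31.6 CPM around the WT values 15.2, 13.1 and 11.0, with replicates 2 and 3 above and replicate 1 below (log2 fold change 1.02, standard error 0.56, adjusted p = 0.127), and without replicate 1 it was called (1.50, adjusted p = 0.0127), which leaves only the 2 libraries with high myeloid markers. Without those 2 and their TH17 counterparts the direction turned (-1.22, adjusted p = 0.189). TH17 had a log2 fold change of 0.02 (-0.30 without the 4 libraries, adjusted p = 0.764). The effect differed among subsets (adjusted p = 0.0396), a call that was lost with any 1 of the 3 replicate numbers left out (0.0577 to 0.316).

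**Figure D4:**
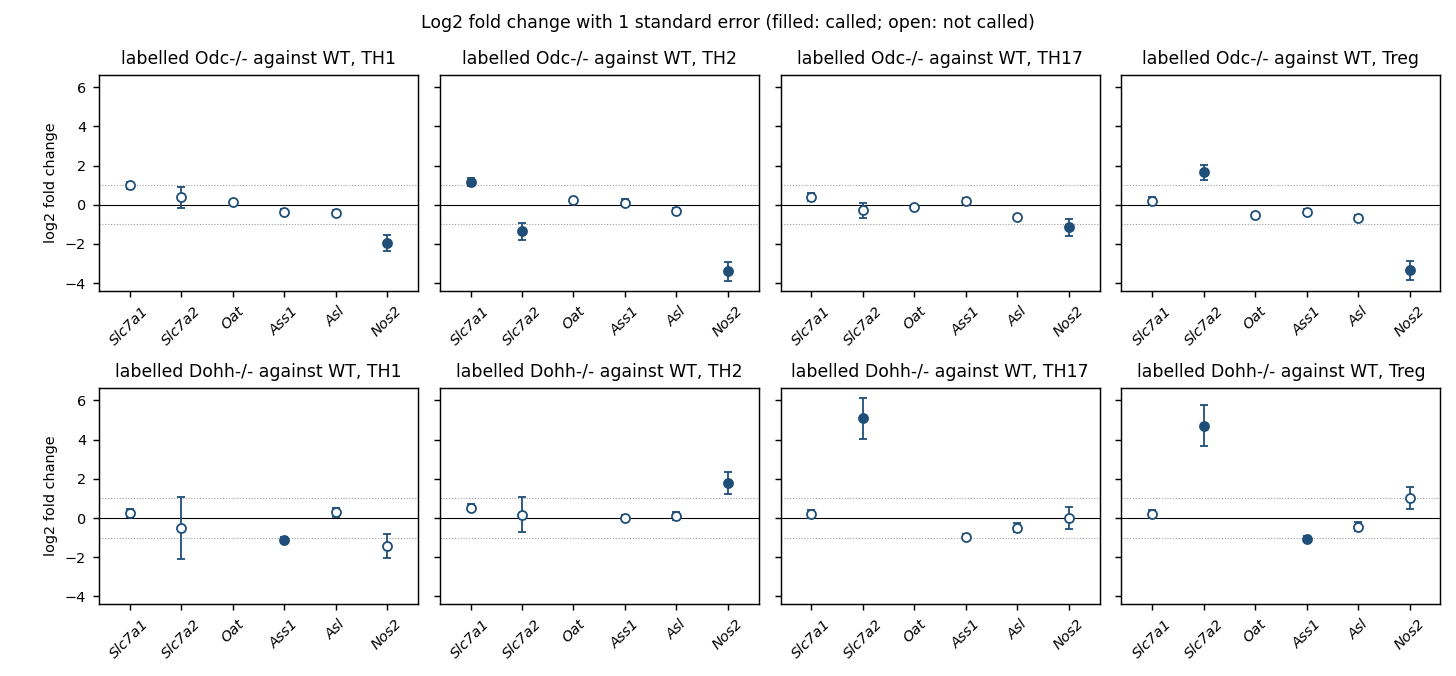
Log2 fold change of each gene, labelled libraries against WT, with 1 standard error, for Odc (top) and Dohh (bottom) in the 4 subsets; filled points were called, dotted lines mark 2-fold, and Oat in the Dohh table is left out. Nos2 is filled and negative in all 4 Odc panels, Nos2 is the highest point of the Dohh panel for TH2, and Slc7a2 is the high point of those for TH17 and Treg.

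Whether the changes differed between the Odc and Dohh tables was tested for 5 genes by the Odc effect minus the Dohh effect in 1 fit of both tables, each effect being against the WT controls of its own table. In TH1, 2 of 5 differed, in TH2 1, in TH17 2 and in Treg 3, where 21.9%, 18.4%, 24.3% and 29.8% of the 12924 genes tested in both did. Nos2 differed in TH2 (log2 difference -5.17, standard error 0.79, adjusted p = 8.18e-06) and in Treg (-4.41, standard error 0.76, adjusted p = 1.74e-05), having fallen with Odc and not with Dohh. Slc7a2 differed in TH17 (-5.44, standard error 0.97, adjusted p = 5.80e-05) and Treg (-3.09, standard error 0.97, adjusted p = 0.0137), the latter lost without Odc replicate 1 or 3 or Dohh replicate 3 (adjusted p = 0.0618, 0.0641 and 0.204). Without the 4 libraries the TH17 difference was -2.61 (adjusted p = 0.049).

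The Ass1 effect lay lower with Dohh than with Odc in TH1 (0.73, standard error 0.21, adjusted p = 0.0116), TH17 (1.07, standard error 0.21, adjusted p = 1.92e-04) and Treg (0.63, standard error 0.21, adjusted p = 0.0205). In TH17 it was 0.18 with Odc and -0.95 with Dohh. The TH1 value was lost without Dohh replicate 2 (adjusted p = 0.0789), and the Treg value without Odc replicate 3 or Dohh replicate 1 or 2 (0.113, 0.0946 and 0.11). Asl differed in TH1 (-0.71, standard error 0.24, adjusted p = 0.0275), where 1 labelled Dohh-/- library was high at 114 CPM, and without Dohh replicate 2 the value was -0.36 (adjusted p = 0.347). Without Odc replicate 2, 3 or 4 it did not pass either (0.0733, 0.0651 and 0.145). Slc7a1 passed in no subset, TH1 being nearest (0.72, standard error 0.27, adjusted p = 0.0524). Without the 4 libraries with high myeloid markers, Slc7a2 in Treg (-0.23, adjusted p = 0.905) and Nos2 in Treg (-2.24, adjusted p = 0.0629) no longer passed, and the 3 Ass1 differences remained.

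The patterns most like each gene were sought over the 16 group means (log2 CPM, centred within table) among 9866 genes tested in both tables at a mean of at least 2 log2 CPM. These correlations describe 16 points that share libraries, subsets and genotypes, and carry no p. Slc7a2 was most like 9530068E07Rik (r = 0.87), Lrpap1 (r = 0.87) and Tcirg1 (r = 0.87). Nos2 was nearest to Triobp (r = 0.90), Sord (r = 0.86) and Cln8 (r = 0.84). For Slc7a1 they were Naf1 (r = 0.92), Tgs1 (r = 0.91) and Fancm (r = 0.90), for Ass1 Tnfrsf13b (r = 0.94), Usp6nl (r = 0.93) and Chd3 (r = 0.93), where Tnfrsf13b encodes TACI, and for Asl Lmf1 (r = 0.94), Pafah1b3 (r = 0.91) and Gys1 (r = 0.90).

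Other genes of the pathway were counted from 4 lists. Of 10 other carriers of cationic amino acids and ornithine, 7 passed the filter in the Odc table and 8 in the other. None was called in TH1, TH2 or TH17 libraries labelled Odc-/- (0 of 7 each, with 3, 4 and 3 at an adjusted p below 0.05) and 2 were called higher in Treg. Of all genes 21.4%, 25.1% and 15.6% were called in those 3 comparisons, 56.8%, 59.2% and 47.8% had an adjusted p below 0.05, and 13.9% were called higher in Treg. Called higher with Dohh were 3, 4, 2 and 3 of 8 in TH1, TH2, TH17 and Treg, and 1 was lower in TH1, against 14.8%, 14.3%, 17.3% and 17.5% of all genes called higher. Slc7a3 (CAT3), a further arginine carrier, rose in all 4 Dohh comparisons (log2 fold changes 1.70 to 3.56), as did Slc7a7 (1.41 to 2.62), which exchanges arginine together with the heavy chain Slc3a2 and shares part of its exonic bases with Oxa1l on the opposite strand. Slc3a2 itself rose in TH1, TH2 and Treg (1.06, 1.38 and 1.43). Slc7a7 was also called in Treg labelled Odc-/- (1.12). Without the 4 libraries with high myeloid markers Slc7a7 was no longer called in TH17 (1.15, adjusted p = 0.138) or Treg (1.42, adjusted p = 0.0752), while Slc7a3 was in both (2.12 and 3.99) and Slc3a2 in Treg (1.28).

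Among enzymes of the urea cycle and other users of arginine, more were called lower than higher in each of the 8 comparisons. Of 11, 5 (Odc) and 6 (Dohh) were tested. Called lower were 5, 4, 2 and 2 of 5 in TH1, TH2, TH17 and Treg labelled Odc-/-, and 4, 3, 2 and 1 of 6 when labelled Dohh-/- (with 1 higher in TH17), against 7.21% to 15.2% of all genes, with medians of -1.59, -1.54, -0.48, -0.35, -1.96, -1.10, -0.26 and -0.74 beside medians of all genes within 0.073 of 0. Gatm, which starts creatine synthesis from arginine, went from a WT mean of 379 to 54.0 CPM in TH2 labelled Odc-/- (log2 fold change -2.81, standard error 0.25, adjusted p = 4.57e-09), and was called in 5 comparisons. Azin2, an antizyme inhibitor that relieves ODC from its inhibitor, went from 90.5 to 31.2 CPM in the same comparison (log2 fold change -1.54, standard error 0.21, adjusted p = 1.30e-06) and was called lower in TH1 and TH2 of both tables. Nos3, the endothelial synthase, was called lower in 7 of 8 comparisons and Nags, which makes the activator of the first urea cycle enzyme, in 5, at WT means of at most 2.39 and 5.67 CPM. Nos3 shares 32.3% of its exonic bases with Atg9b and Gm15587 and Nags 15.6% with Gm11586, all on the opposite strand, so reads there may belong to either gene. Nos3 was lost in TH17 and Treg labelled Dohh-/- without the 4 libraries (-0.96 and -1.40, adjusted p = 0.256 and 0.127), and 1 and 0 of 6 were called lower there. The 1 called higher in TH17 was Gamt, which completes creatine synthesis (1.92), named after its value was seen, and without those libraries it turned to -0.27 (adjusted p = 0.899). The list holds several unlike activities, and its members do not form 1 route.

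Among 11 genes of the route from glutamine and glutamate to ornithine and proline, 10 (Odc) and 9 (Dohh) were tested. Gls2, the liver-type glutaminase, fell in all 8 comparisons (log2 fold changes -2.81 to -1.02), and Prodh, proline dehydrogenase, rose in all 8 (1.57 to 3.80) from WT means of at most 2.75 CPM. Gls2 was not called in Treg labelled Dohh-/- without the 4 libraries (-0.82, adjusted p = 0.200), and Prodh was called in TH17 and Treg at 1.72 and 2.94 (adjusted p = 0.0351 and 0.00121). The glutamine carrier Slc1a5 rose in TH1 and TH2 labelled Odc-/- and TH2 labelled Dohh-/- (1.13, 1.22 and 1.40), and Pycr3, a pyrroline-5-carboxylate reductase, in TH1 of both tables and TH2 of the Odc table (1.08, 1.34 and 1.12). In all, 4, 4, 2 and 2 of 10 were called in TH1, TH2, TH17 and Treg labelled Odc-/-, and 3, 4, 2 and 2 of 9 when labelled Dohh-/-, shares on both sides of the 15.6% to 32.7% of all genes. Of the 5 genes for tetrahydrobiopterin, the cofactor of Nos2, 4 were tested in each table. Called were 1, 0, 1 and 0 of 4 in TH1, TH2, TH17 and Treg of each table, all higher, against those shares of all genes. Gch1, which starts its synthesis, was called higher in TH1 and TH17 labelled Odc-/- and TH17 labelled Dohh-/- (1.05, 1.03 and 1.41). Without the 4 libraries the last value was 1.58. The call in TH1 labelled Dohh-/- was another gene of the list.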

How the data were processed

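The RNA-seq libraries (TruSeq stranded mRNA) were analysed from the 2 tables of raw counts per gene that the authors deposited. The submitters' processing notes name STAR, featureCounts and mm10; versions and the strand setting of the counting are not given in the sources used here. Of 56 samples in the labels, 55 had a column (1 not analysed here). Groups came from the sample titles.

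Counts were tested in R 4.3.3 with edgeR 4.0.16: filterByExpr over the 8 groups of a table, TMM scaling, robust quasi-likelihood fits with 1 mean per group and Benjamini-Hochberg adjustment over all genes tested. A call needed an adjusted p below 0.05 and more than a 2-fold change, the thresholds of the study, whose tool DESeq2 (1.42.0 here) served as an alternative. CPM are TMM-scaled. Dividing by the union of exons gave CPM per kilobase. The fits were tested on simulated data. The 6 genes, the lists and the tests were chosen with earlier results of these data known. Genes outside the 6 were named where called the same way in at least 3 of 8 comparisons or where of the largest mean change in their list. Gamt met neither condition and was named after its value was seen. The 3 genes most like each member were taken by Pearson's r. Some genes of the same route are not reported here. The term for Xist, the fit without 4 libraries and the block within genotype were chosen after seeing the data.

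Replicate numbers recur across groups. Same-numbered WT libraries of different subsets deviated together (r over 0.1) in 24 of 24 pairs of the Odc table (r 0.206 to 0.576). These were taken as paired, and WT subsets of the Odc table were also fitted with the number as a block within genotype, printed beside values that then passed. Not every pair did so among Dohh WT (15 of 18), labelled Odc-/- (20 of 21) or labelled Dohh-/- libraries (13 of 18), or between WT and labelled libraries (7 of 15 and 1 of 12), which were not taken as paired. The deposited tables held no fold changes. Counts of 0 and the counting intervals carry counting error only.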

Additional observations from a re-analysis of the deposited data

Results flagged for a closer look

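Of 42 pairs of a gene and a group of 4 libraries, 2 held 1 library far from the others by Dixon's ratio, where chance gives about 1 in 20. Slc7a1 was high in WT TH17 replicate 4 of the Odc table (200.0 CPM, ratio 0.860), and Ass1 in WT TH1 replicate 3 (125 CPM, ratio 0.839).

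The effect of genotype differed among subsets (edgeR quasi-likelihood F test, adjusted p) in the Odc table for Oat (3.28e-05), Slc7a2 (0.00145), Nos2 (0.0147) and Slc7a1 (0.0169). Of these only Oat passed whichever replicate number was left out. In the Dohh table it differed for Ass1 (0.00101), Slc7a2 (0.0183) and Nos2 (0.0396). Each was lost there when some replicate was left out: Ass1 without replicate 1 (0.0717) or 2 (0.0587), Nos2 without any 1 of the 3 (0.0577 to 0.316) and Slc7a2 without replicate 2 (0.146) or 3 (0.291). Slc7a2 was also lost without the 4 libraries with over 1000 CPM of myeloid markers (0.343).

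The Odc effect differed from the Dohh effect for Nos2 in TH2 (adjusted p = 8.18e-06) and Treg (1.74e-05), and for Slc7a2 in TH17 (5.80e-05) and Treg (0.0137). It differed for Ass1 in TH17 (1.92e-04), TH1 (0.0116) and Treg (0.0205), and for Asl in TH1 (0.0275). Nos2 and Slc7a2 in Treg were lost without the 4 libraries with high myeloid markers (0.0629 and 0.905). Of the 7 fits that each left out 1 replicate number of 1 table, 4 lost Asl in TH1, 3 lost Ass1 in Treg, 3 lost Slc7a2 in Treg and 1 lost Ass1 in TH1, and none lost the other 4.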

How the results depend on the processing

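Among 1579 alternative values for the 6 genes, 1479 kept their side of the threshold (51 of them, called in neither fit, changed sign), 61 lost the call, 39 gained it and 0 of the called ones changed sign. Among 215 alternative counts of genes, 165 stayed within 1.5 times the count reported and 50 did not; the cause was not tested. Odc TH1 (1 called) became 2 with the replicate block, 2 with the Xist term and 3 by adjusted p alone. Odc TH2 (3) became 5 by adjusted p alone and 1 by glmTreat. Odc TH17 (1) became 0 with no filter on low counts, by glmTreat, with only the 2 groups or with the Xist term, and 2 by adjusted p alone. Odc Treg (2) became 5 by adjusted p alone and 1 by glmTreat. Dohh TH1 (1) became 2 with the replicate block, DESeq2, the Xist term or without the 4 libraries with high myeloid markers, and 0 by glmTreat. Dohh TH2 (1) became 0 with no filter or by glmTreat and 2 by adjusted p alone. Dohh TH17 (1) became 2 by adjusted p alone, and Treg (2) became 1 by glmTreat or without those 4 libraries. Genes that differed between Odc and Dohh became 2 with the replicate block in TH2 (1), and 1 without the 4 libraries in Treg (3).

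Leaving out each replicate in turn gave 1 to 2 calls in Odc TH1, 3 in TH2, 0 to 1 in TH17 and 2 in Treg, and 1 to 2, 0 to 1, 1 to 2 and 2 in the Dohh comparisons. It gave 5 (Odc) and 2 to 3 (Dohh) genes that differed among WT subsets, 8 to 10 and 3 to 6 calls between pairs of them (10 and 5 with all libraries), and 1 to 4 and 0 to 1 genes with an effect that differed among subsets. Genes that differed between Odc and Dohh were 0 to 3 in TH1 (0 without Dohh replicate 2), 1 to 2 in TH2, 2 in TH17 and 1 to 3 in Treg (1 without Odc replicate 3). With the replicate block the effect of Odc genotype differed among subsets for 5 genes in place of 4, Ass1 being the gain (adjusted p = 0.0345), and with the block within genotype the Dohh WT subsets had 6 pairwise calls in place of 5, Slc7a2 in TH2 over TH17 being the gain (2.78, adjusted p = 1.33e-04). Labelled and WT libraries share only a number, so a call lost with the block is not read as a weaker effect. Depth limits Slc7a2 in TH1 of the Dohh table, which had 3 to 15 counts per library.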
